A study of Homo sapiens with 21 samples.

Results

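The 9 genes described here act at the entry of glucose into the cell, around glucose 6-phosphate, or at phosphoenolpyruvate (PCK1 and PCK2). They are the glucose transporters SLC2A1, SLC2A2 and SLC2A3, the hexokinases HK1 and HK2, the glucose-6-phosphatase subunits G6PC2 and G6PC3, and the phosphoenolpyruvate carboxykinases PCK1 and PCK2. They were chosen by symbol, as the rows of the count table whose gene identifier maps to these names, and are 9 of the 62699 genes used. The choice was made with earlier results of these data known. All 9 had enough counts to be tested. RNA was sequenced from islet cells differentiated from H1, an established human embryonic stem cell line, to ask how the transcription factor ISL1 acts during islet differentiation. Cells received a lentivirus on day 11, either ISL1 joined to the blue fluorescent protein BFP through an IRES2 element (the ISL1 vector) or BFP alone (the BFP vector), and BFP-positive cells were sorted on day 18. The groups are WT with BFP (2 libraries), WT with ISL1 (2), ISL1-/- with BFP (3), ISL1-/- with ISL1 (3), PAX6-/- with BFP (3), PAX6-/- with ISL1 (3), PDX1-/- with BFP (3) and PDX1-/- with ISL1 (2). All groups share the H1 background, the differentiation protocol, a lentivirus and the sort. The promoter of the vector, the number of clones behind each knockout and the expected structure of each edited allele are not given in the sources used here. The series describes the libraries of a group as biological replicates, and they carry the number given in the sample description.

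Glucose enters cells down its gradient through GLUT proteins, is trapped by phosphorylation to glucose 6-phosphate, and can be released again where a glucose-6-phosphatase is present. GLUT1 (SLC2A1) is the main carrier of many cells including human beta cells, GLUT2 (SLC2A2) is the low-affinity carrier of liver and of islet beta cells, and GLUT3 (SLC2A3) is a high-affinity carrier known best from neurons. HK1 and HK2 are high-affinity hexokinases. G6PC2 is the islet form of glucose-6-phosphatase, which works against glucose phosphorylation in beta cells, while G6PC3 is found in most tissues. PCK1 in the cytosol and PCK2 in mitochondria convert oxaloacetate to phosphoenolpyruvate.

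Each library held between 36.8 and 60.2 M counts (M for 1000000). Levels are given as counts per M (CPM) of a library size scaled by TMM, with the mean ± SD of a group. The targeted genes were examined first. The mean of ISL1 was 413 CPM in the WT libraries with BFP (range 306 to 519) and 76.9 in the ISL1-/- libraries with BFP (73.7 to 82.4). ISL1 was lower in ISL1-/- (log2 fold change -2.42, adjusted p = 0.00126), and all 6 ISL1-/- libraries (71.6 to 96.8 CPM) lay below every other library. Its counts did not separate the vectors, with 349 CPM in WT and 84.5 in ISL1-/- under the ISL1 vector. PAX6 in PAX6-/- with BFP (99.5 to 166 CPM) overlapped with WT with BFP (140 to 232), and PDX1 in PDX1-/- with BFP (103 to 116) was not below WT (80 to 102). Gene counts therefore check the ISL1-/- label but not those of the vector, PAX6-/- and PDX1-/-, which are named as labelled. In 2 libraries mitochondrial genes took a larger share of the counts, 3.16% in PAX6-/- with ISL1 replicate 3 and 3.84% in PDX1-/- with ISL1 replicate 4, against 1.28% to 1.93% in the other libraries. These 2 libraries also had the lowest HK2 levels and the highest G6PC3 levels of all 21, and values without them are given beside the main results that rest on them.

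In WT cells with the BFP vector, the levels per kb of exon length, which allow genes to be compared, were highest for G6PC2 at 31.1 CPM per kb ± 3.68 (SD, n = 2). PCK2 followed at 27 CPM per kb ± 0.947 and SLC2A1 at 25.8 ± 3.17 (SD, n = 2 each). The libraries ranged from 28.5 to 33.7 CPM per kb for G6PC2, 26.3 to 27.7 for PCK2 and 23.6 to 28.1 for SLC2A1, so the last pair overlapped. G6PC3 had 14.8 CPM per kb and HK1 9.86. SLC2A2 (8.04 CPM per kb ± 0.704) and SLC2A3 (7.46 ± 0.656) were near each other, HK2 had 5.61, and PCK1 was lowest at 1.92 ± 0.0417 (SD, n = 2 each). Of the 3 transporters, SLC2A1 thus held 62.4% ± 4.94 of the summed level per kb, and of the pair of phosphatases G6PC2 held 67.7% ± 1.45 (SD, n = 2).

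**Figure D1:**
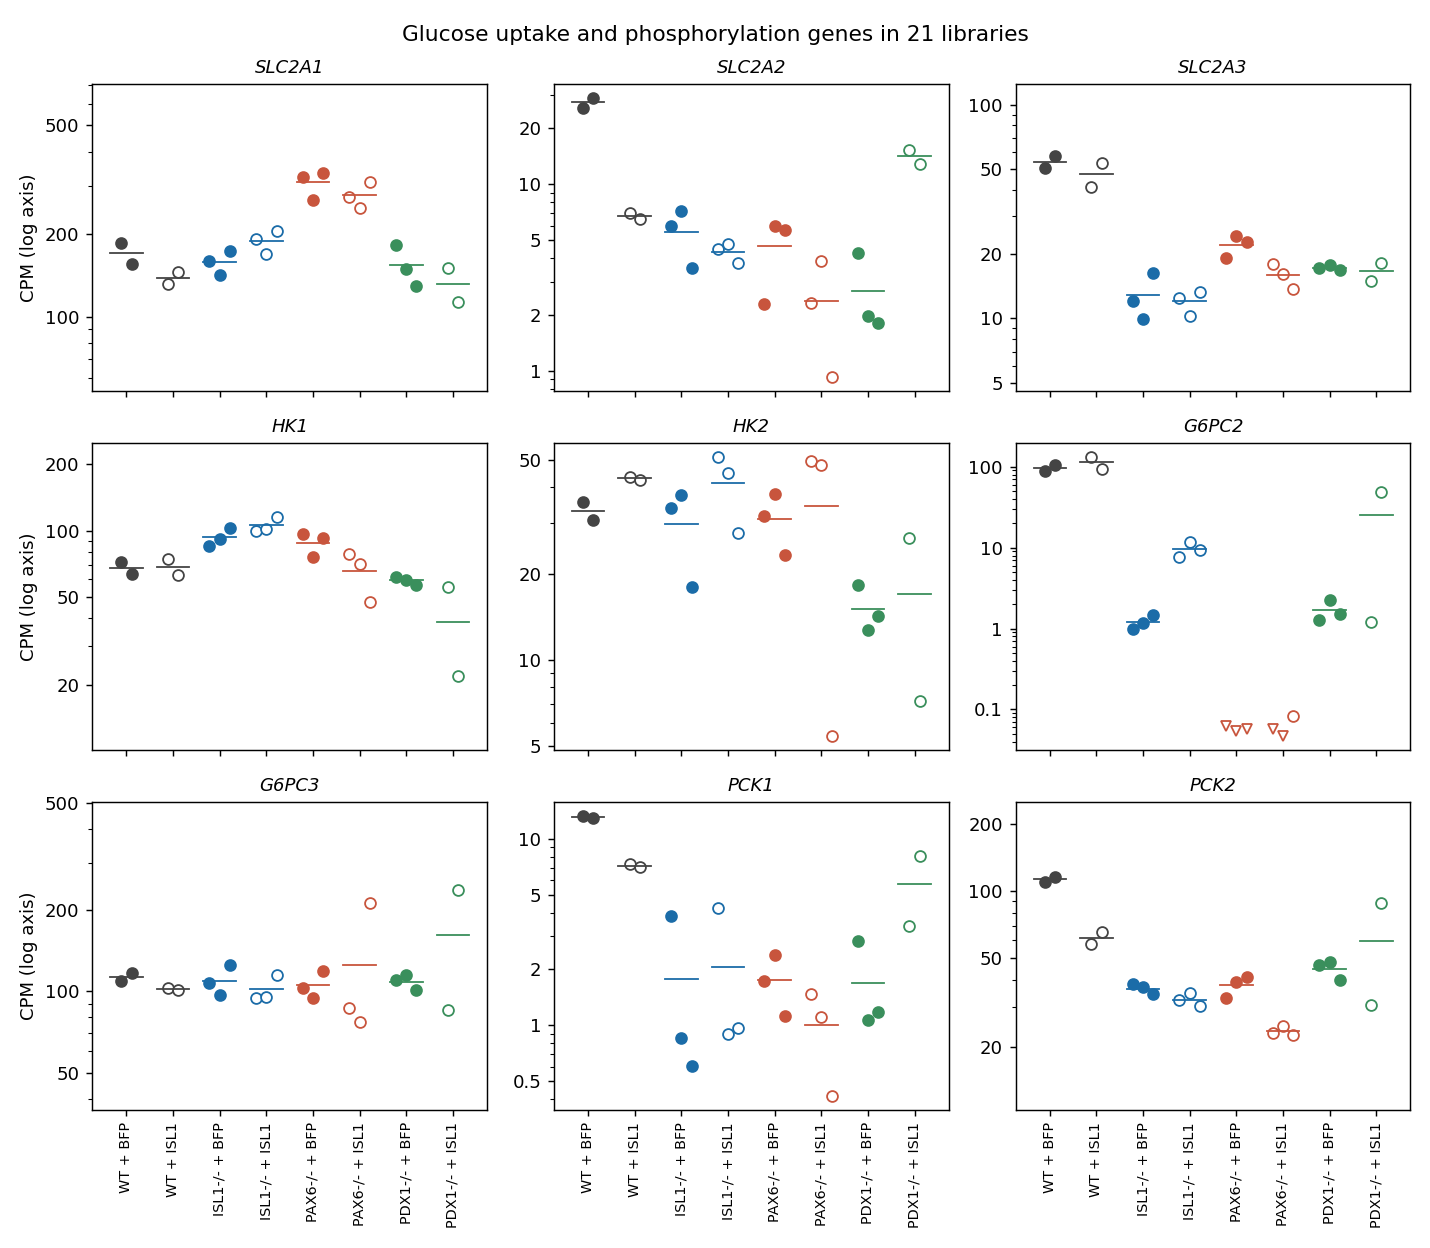
CPM (log axis) of the 9 genes in each library, by genotype and vector; filled circles are BFP libraries, open circles ISL1 libraries, lines are group means, and triangles mark libraries with 0 G6PC2 counts, drawn at the level of 3 counts. The WT libraries lie above all knockout libraries for SLC2A3 (41.3 to 57.5 CPM in WT) and for G6PC2 (87.6 to 133 CPM in WT), while SLC2A1 is highest in the PAX6-/- libraries.

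With the BFP vector, each knockout was first compared with WT. The same 5 genes were lower in each of the 3 knockouts: G6PC2, SLC2A2, SLC2A3, PCK1 and PCK2 (adjusted p under 0.05, edgeR quasi-likelihood test). In ISL1-/- these were the 5 of 9 genes called, where 5.59% of all 25884 genes tested were called and 3.92% were called lower. In PAX6-/- 6 of 9 were called, the additional gene being SLC2A1, which was higher, where 5.51% of all genes were called, 3.26% lower and 2.25% higher. In PDX1-/- 5 of 9 were called, where 9.68% of all genes were, and 5.65% were lower. The median log2 fold change of the 9 genes was -1.63, -1.29 and -1.34 in ISL1-/-, PAX6-/- and PDX1-/-, and that of all genes tested was 0.02, 0.03 and 0.03. The 3 comparisons share the 2 WT libraries with BFP, so their likeness is not independent. Because the 9 genes were chosen with earlier results of these data known, the counts called are not those of a blind choice. In bulk RNA, fewer cells of a type and less RNA per cell cannot be told apart.

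**Figure D2:**
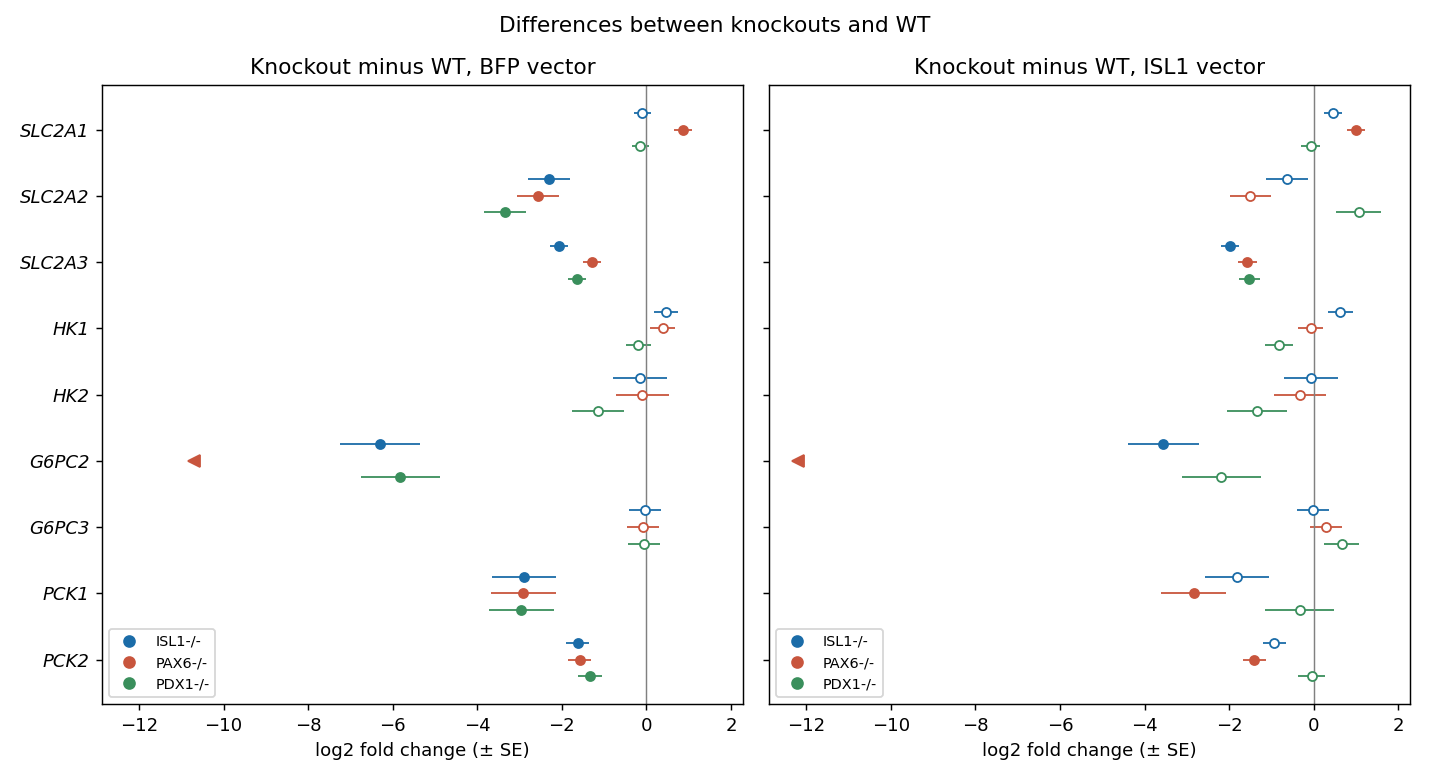
Log2 fold change (± SE, edgeR) of each gene between a knockout and WT, with the BFP vector (left) and the ISL1 vector (right); filled points have an adjusted p under 0.05, and triangles mark G6PC2 in PAX6-/- without an SE, drawn at the bound from 3 counts per library (at least 1662-fold lower, left) and at the ratio of means (4664-fold lower, right). With BFP, G6PC2, SLC2A2, SLC2A3, PCK1 and PCK2 lie left of 0 in all 3 knockouts, and SLC2A1 lies right of 0 in PAX6-/-.

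G6PC2 (ENSG00000152254, GRCh38 chr2:168901291-168910000, plus strand) had the largest difference. WT libraries with BFP had 87.6 and 104 CPM, ISL1-/- libraries 0.992, 1.18 and 1.46, PDX1-/- libraries 1.29, 2.25 and 1.51, and the PAX6-/- libraries had 0 counts in all 3. Every knockout library thus lay far below both WT libraries. The log2 fold change against WT was -6.30 (SE 0.95, adjusted p = 0.00107) in ISL1-/- and -5.82 (SE 0.93, adjusted p = 0.00137) in PDX1-/-. In PAX6-/- the level was at least 1662-fold lower than in WT (3 counts per library taken as the floor, 0.0575 CPM on average, counting error only; adjusted p = 0.000132). These 3 calls held in each of 21 fits that left out 1 library and in all 8 other alternatives. Between knockouts, G6PC2 was at least 21-fold higher in ISL1-/- than in PAX6-/- (adjusted p = 0.0129) and at least 29.2-fold higher in PDX1-/- than in PAX6-/- (adjusted p = 0.00721). The former call was lost without PAX6-/- with BFP replicate 1 or 3 (adjusted p up to 0.0557). ISL1-/- and PDX1-/- differed by -0.48 (SE 0.78, adjusted p = 0.836), and their libraries overlapped. G6PC2 overlaps SPC25 on the opposite strand, which had 138 to 959 counts per library, also where G6PC2 had 0.

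G6PC3 (GRCh38 chr17:44070620-44082151, plus strand), the widely expressed phosphatase, had 109 and 117 CPM in WT with BFP. The knockouts with BFP spanned 94.4 to 125 CPM and overlapped with WT. Its log2 fold changes were -0.04, -0.09 and -0.05 in ISL1-/-, PAX6-/- and PDX1-/-, none of which passed the test. The share of G6PC2 in the summed level per kb of both phosphatases was 67.7% ± 1.45 (SD, n = 2) in WT with BFP, 2.67% ± 0.358 in ISL1-/-, 0% in PAX6-/- and 3.67% ± 0.899 in PDX1-/- (SD, n = 3 each). G6PC3 overlaps HDAC5 on the opposite strand, and whether reads were counted by strand is not given in the sources used here.

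SLC2A2 (GRCh38 chr3:170996347-171026743, minus strand) had 25.7 and 29.1 CPM in WT with BFP. The ISL1-/- libraries with BFP had 6, 7.19 and 3.55 CPM, those of PAX6-/- 2.28, 6 and 5.67, and those of PDX1-/- 4.3, 1.97 and 1.81. All 9 knockout libraries lay below both WT libraries. The log2 fold changes were -2.30 (SE 0.49, adjusted p = 0.00898), -2.56 (SE 0.49, adjusted p = 0.0062) and -3.35 (SE 0.50, adjusted p = 0.000683). The ISL1-/- call was lost without ISL1-/- with BFP replicate 3 or WT with BFP replicate 3 (adjusted p up to 0.0682), and the PAX6-/- call without WT with BFP replicate 3 (0.0524). No pair of knockouts with BFP differed in SLC2A2 by the test, the widest difference being 1.05 (SE 0.45, adjusted p = 0.212) between ISL1-/- and PDX1-/-.

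SLC2A3 (GRCh38 chr12:7919230-8019007, minus strand), which encodes GLUT3, was lower in all 3 knockouts. It had 50.8 and 57.5 CPM in WT with BFP, 12.1, 9.95 and 16.4 in ISL1-/-, 19.1, 24.4 and 22.7 in PAX6-/-, and 17.3, 17.7 and 16.9 in PDX1-/-. No knockout library reached the WT range. The log2 fold changes against WT were -2.07 (SE 0.22, adjusted p = 2.88e-05), -1.29 (SE 0.22, adjusted p = 0.00271) and -1.64 (SE 0.22, adjusted p = 0.000356). All 3 calls held in each of 21 fits without 1 library. SLC2A3 was lower in ISL1-/- than in PAX6-/- (log2 difference -0.78, SE 0.20, adjusted p = 0.0482), a call that held in only 4 of 21 fits without 1 library (adjusted p up to 0.255). SLC2A3 has a near-identical copy, SLC2A14, which had 1 to 75 counts per library. How reads that match both were counted is not given in the sources used here, so the level of SLC2A3 is uncertain to that extent.

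SLC2A1 (GRCh38 chr1:42925353-42958893, minus strand), the GLUT1 gene, was higher in PAX6-/-. The WT libraries with BFP had 186 and 156 CPM and the PAX6-/- libraries 325, 268 and 336, with no overlap. ISL1-/- (160, 142 and 174 CPM) and PDX1-/- (183, 149 and 130 CPM) overlapped with WT. The log2 fold change in PAX6-/- against WT was 0.86 (SE 0.21, adjusted p = 0.0243). That call was lost without PAX6-/- with BFP replicate 1 or 3 or either WT library with BFP (adjusted p up to 0.247), and without the filter on low counts (0.104). The difference between knockouts was tested itself: SLC2A1 was higher in PAX6-/- than in PDX1-/- by 1.01 (SE 0.19, adjusted p = 0.00453), which held in all 21 fits without 1 library, and lower in ISL1-/- than in PAX6-/- by -0.96 (SE 0.19, adjusted p = 0.00699), lost only without ISL1-/- with BFP replicate 2 (0.0528). ISL1-/- and PDX1-/- against WT gave -0.10 (adjusted p = 0.863) and -0.15 (adjusted p = 0.763). NEUROG3, the endocrine progenitor factor, was also highest in PAX6-/- with BFP (752 to 1274 CPM), beside 117 to 178 CPM in WT and 74.7 to 139 in PDX1-/-, but it was above WT in ISL1-/- as well (306 to 391), where SLC2A1 was not. Of the 6 progenitor or duct markers that include it, 1 was called higher in PAX6-/- and none lower, with a median log2 fold change of 0.20, and CFTR had a lower mean there (44.4 CPM against 122 in WT). The part of NEUROG3 in the SLC2A1 result was not tested.

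**Figure D3:**
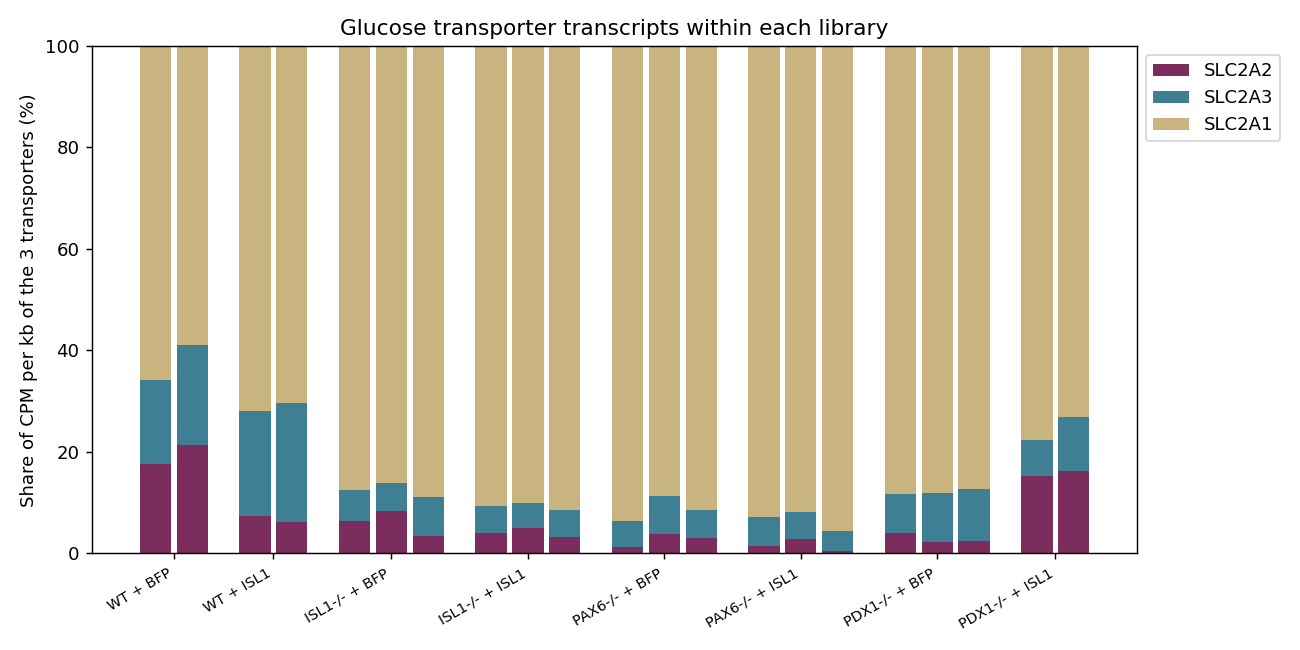
Share (%) of SLC2A1, SLC2A2 and SLC2A3 in their summed CPM per kb, with a bar for each of the 21 libraries, grouped by genotype and vector. SLC2A1 takes a mean of 62.4% in WT with BFP and 91.3% in PAX6-/- with BFP, and the mean SLC2A2 share in PDX1-/- is 2.88% with BFP and 15.7% with ISL1.

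The makeup of the 3 transporters therefore differed between genotypes. With BFP, SLC2A1 took 62.4% ± 4.94 (SD, n = 2) of their summed level per kb in WT. It took 87.5% ± 1.41 in ISL1-/-, 91.3% ± 2.47 in PAX6-/- and 87.9% ± 0.57 in PDX1-/- (SD, n = 3 each), and the lowest knockout library (86%) lay above the highest WT library (65.9%). The share of SLC2A2 was 19.5% ± 2.56 (SD, n = 2) in WT and 6.11% ± 2.49, 2.71% ± 1.31 and 2.88% ± 0.989 in the knockouts (SD, n = 3 each). As shares they move with each other, and in ISL1-/- and PDX1-/- the level of SLC2A1 itself did not pass the test.

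To show the stretches before the start sites of the phosphatase and the carrier that were lower in all 3 knockouts, and of the carrier that was higher in PAX6-/-, the 250 bases upstream of each RefSeq start (GRCh38.p14) are given 5′ to 3′ in the direction of the gene. Capitals mark TAAT, read on both strands (so also as ATTA), the core letters that many homeodomain proteins, a class that includes ISL1, PAX6 and PDX1, prefer.
G6PC2, chr2:168901041-168901290, plus strand: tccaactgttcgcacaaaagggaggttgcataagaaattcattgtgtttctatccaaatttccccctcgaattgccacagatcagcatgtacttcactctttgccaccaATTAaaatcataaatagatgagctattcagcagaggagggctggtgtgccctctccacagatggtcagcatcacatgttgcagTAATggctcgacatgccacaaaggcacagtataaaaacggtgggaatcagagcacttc
SLC2A2, chr3:171026721-171026970, minus strand: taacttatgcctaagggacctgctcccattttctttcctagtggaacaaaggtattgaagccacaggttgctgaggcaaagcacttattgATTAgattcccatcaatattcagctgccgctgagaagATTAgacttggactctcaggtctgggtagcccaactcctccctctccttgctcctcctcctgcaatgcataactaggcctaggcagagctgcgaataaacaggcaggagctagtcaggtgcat
SLC2A1, chr1:42958869-42959118, minus strand: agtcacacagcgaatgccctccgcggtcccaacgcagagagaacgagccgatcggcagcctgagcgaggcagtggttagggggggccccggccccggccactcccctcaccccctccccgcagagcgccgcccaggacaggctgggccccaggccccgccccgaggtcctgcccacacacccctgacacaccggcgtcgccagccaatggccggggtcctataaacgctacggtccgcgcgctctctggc
The letters TAAT occur 2 times before G6PC2, 2 times before SLC2A2 and not before SLC2A1. Of all 35116 RefSeq windows of this length, 47.4% hold at least 1 and 27.6% hold 2 or more. The E-box letters CANNTG, which read the same on both strands, occur 3 times before G6PC2, 2 times before SLC2A2 and not before SLC2A1, and 61.8% of all windows hold at least 1. GC content was 44.8%, 48.8% and 72.4%, beside a median of 58% over all windows. In the window of PCK2, which was also lower in all 3 knockouts, neither set of letters occurs. HK1, HK2 and G6PC3, which were not called in any knockout with BFP, have several windows each. TAAT occurs 0 to 3 times in those of HK1, 0 or 1 time in those of G6PC3 and not in those of HK2. CANNTG occurs 0 to 2 times in those of HK1 and HK2 and 1 or 2 times in those of G6PC3. RefSeq windows matched 7 of the 9 genes, with none for SLC2A3 and PCK1. A match of letters is a description of the sequence and shows no binding.

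HK1 (GRCh38 chr10:69269984-69401884, plus strand), the hexokinase of most tissues, did not pass the test in any knockout with BFP. WT libraries had 72.3 and 63.4 CPM, ISL1-/- 85.2, 91.7 and 103, PAX6-/- 96.5, 75.5 and 92.1, and PDX1-/- 61.9, 59.7 and 56.6. The ISL1-/- and PAX6-/- libraries lay above both WT libraries and the PDX1-/- libraries below both. The log2 fold changes were 0.46 (SE 0.29, adjusted p = 0.432), 0.38 (adjusted p = 0.552) and -0.19 (adjusted p = 0.788). Without both libraries that stand apart, which are in neither group but enter the shared estimate of the spread, the first 2 were 0.48 (adjusted p = 0.00919) and 0.37 (adjusted p = 0.0384).

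HK2 (GRCh38 chr2:74834127-74893359, plus strand), the inducible hexokinase, varied within groups. With BFP it had 35.6 and 30.8 CPM in WT, 34, 37.6 and 17.9 in ISL1-/-, 31.7, 37.8 and 23.2 in PAX6-/-, and 18.3, 12.7 and 14.2 in PDX1-/-. The 3 PDX1-/- libraries lay below both WT libraries, and the other knockouts overlapped with WT. The PDX1-/- log2 fold change was -1.14 (SE 0.62, adjusted p = 0.305), and -1.16 (adjusted p = 0.00541) without both libraries that stand apart. In ISL1-/- and PAX6-/-, the library numbered 3 was the lowest of its group for HK2 with either vector. Of the summed level per kb of both hexokinases, HK1 took 63.7% ± 0.218 (SD, n = 2) in WT and 77.3% ± 2.88 (SD, n = 3) in PDX1-/-, both with BFP.

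PCK2 (GRCh38 chr14:24094053-24110598, plus strand), the mitochondrial carboxykinase, had 110 and 116 CPM in WT with BFP. It had 38.1, 36.9 and 34.3 CPM in ISL1-/-, 33.1, 39 and 40.9 in PAX6-/-, and 46.5, 47.8 and 39.7 in PDX1-/-. The highest knockout library, at 47.8 CPM, was far below the lower WT library. The log2 fold changes were -1.63 (SE 0.28, adjusted p = 0.00201), -1.58 (SE 0.28, adjusted p = 0.00352) and -1.34 (SE 0.28, adjusted p = 0.00558), and all 3 calls held in each of 21 fits without 1 library. The knockouts did not differ from each other by the test, with differences of -0.05, -0.29 and -0.25 (SE 0.25 each). PCK2 overlaps NRL on the opposite strand, which had 95 to 218 counts per library, against 1078 to 5001 for PCK2.

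PCK1 (GRCh38 chr20:57561080-57568121, plus strand), the cytosolic enzyme of gluconeogenesis in liver, was low throughout. It had 13.3 and 12.9 CPM in WT with BFP, 3.88, 0.849 and 0.607 in ISL1-/-, 1.72, 2.39 and 1.12 in PAX6-/-, and 2.83, 1.07 and 1.18 in PDX1-/-. All knockout libraries lay below WT, but within ISL1-/- replicate 1 stood well above the other libraries. The log2 fold changes were -2.89 (SE 0.76, adjusted p = 0.033), -2.91 (SE 0.76, adjusted p = 0.0326) and -2.96 (SE 0.77, adjusted p = 0.0204). These calls were less secure than those of PCK2. They were lost without either WT library with BFP, without ISL1-/- replicate 2 or 3 in ISL1-/- (adjusted p up to 0.139), without any PAX6-/- library in PAX6-/- (up to 0.149), and without PDX1-/- replicate 2 or 3 in PDX1-/- (up to 0.0958), all with BFP.

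Marker genes of several cell types moved with the lower genes. Summed over 6 alpha cell markers, the libraries with BFP ranged from 40400 to 54990 CPM in WT, 669 to 724 in ISL1-/-, 1119 to 1882 in PAX6-/- and 16710 to 21538 in PDX1-/-. The sum of 6 beta cell markers ranged from 7630 to 8721 CPM in WT, 2148 to 2811 in ISL1-/-, 972 to 1327 in PAX6-/- and 781 to 865 in PDX1-/-, so the labelled islet identity is present in WT, with INS at 6418 CPM, and the sum, to which INS and ERO1B give most in WT, was lower in the knockouts. NKX6-1 and MAFA in that list had higher means in all 3 knockouts: 219, 128 and 326 CPM of NKX6-1 in ISL1-/-, PAX6-/- and PDX1-/- against 62.8 in WT, and 2.76, 1.81 and 4.12 of MAFA against 0.964. The 4 delta cell markers summed to 399 to 533 CPM in WT and 39.1 to 110 across the knockouts. Of 7 hepatocyte markers, all with counts in every group, the sum ranged from 16853 to 19146 CPM in WT, 6847 to 9859 in ISL1-/-, 5419 to 7513 in PAX6-/- and 4054 to 4563 in PDX1-/-. SLC2A2 and PCK1 are also known as liver genes. The sum of 5 enterochromaffin markers went the other way, from 844 to 980 CPM in WT to 2161 to 2908, 1309 to 2122 and 3583 to 4234. The part of these markers in the differences of the 9 genes was not tested.

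The ISL1 vector was then compared with BFP within each genotype. In WT 0 of 9 genes were called (0.027% of all genes, with 2 of the 9 genes at an unadjusted p under 0.05), in ISL1-/- 0 (0.382%, 1 gene unadjusted), in PAX6-/- 0 (0.355%, 3 genes unadjusted), and in PDX1-/- 2, G6PC2 and SLC2A2, both higher (12.5% of all genes called and 8.19% called higher). DESeq2 called 0, 0, 0 and 2 of the genes in these comparisons, and limma with voom quality weights 2, 1, 1 and 0. All shares of all genes belong to the main fit, and those of the other fits were not computed.

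**Figure D4:**
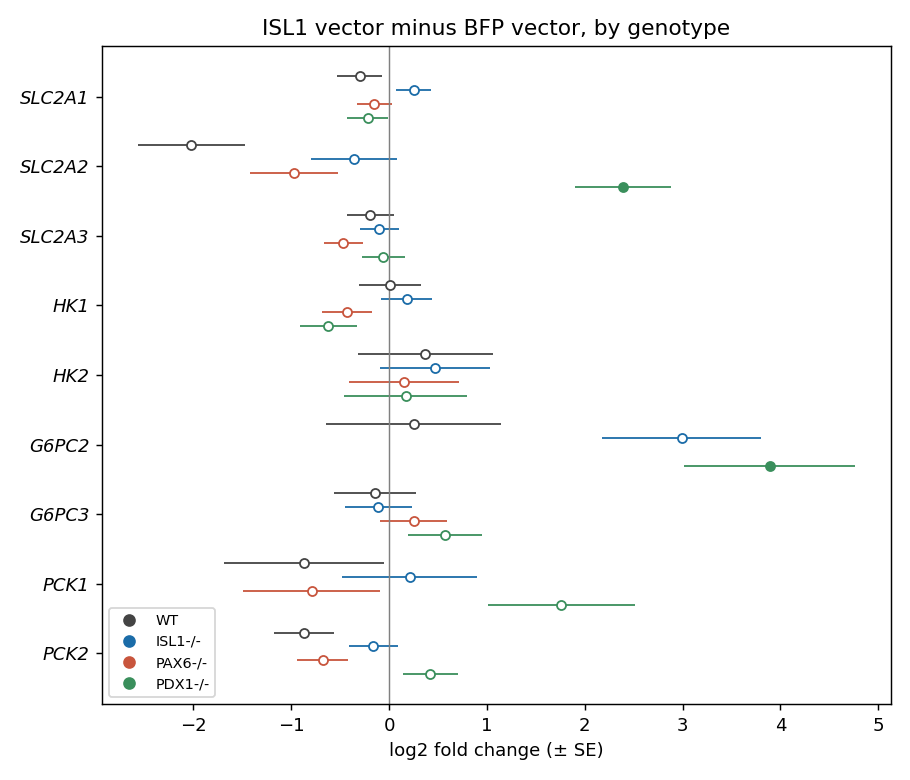
Log2 fold change (± SE, edgeR) of the ISL1 vector against BFP for each gene in the 4 genotypes; filled points have an adjusted p under 0.05, and G6PC2 in PAX6-/- is left out because 5 of 6 libraries had 0 counts. The filled points are SLC2A2 (2.39) and G6PC2 (3.89) in PDX1-/-, and SLC2A2 in WT lies on the other side of 0, at -2.02.

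SLC2A2 differed in the direction of its vector difference between WT and PDX1-/-. In WT it had 25.7 and 29.1 CPM with BFP and 6.97 and 6.52 with ISL1, without overlap, and the log2 fold change of -2.02 (SE 0.55) had an adjusted p of 0.557 (0.00182 with only the groups compared in the fit and 0.00184 with voom). In PDX1-/- it had 4.3, 1.97 and 1.81 CPM with BFP and 15.3 and 12.9 with ISL1, also without overlap, and the log2 fold change was 2.39 (SE 0.49, adjusted p = 0.006). Both PDX1-/- libraries with ISL1 lay above both WT libraries with ISL1. Without PDX1-/- with ISL1 replicate 4, which stands apart, the value was 2.53 (SE 0.57, adjusted p = 0.0215), and the call held in each of 21 fits without 1 library. It was lost with the description number as a block (adjusted p = 0.0638), with only the groups compared (0.266) and with voom (0.549). The difference of the vector effect, PDX1-/- minus WT, was 4.41 (SE 0.75, adjusted p = 0.00861), the only 1 of 9 genes called in that test, where 1.19% of all genes were called and 0.993% were higher. It was 4.58 (SE 0.80, adjusted p = 0.0132) without replicate 4, and its call was lost without either WT library with ISL1 (adjusted p up to 0.114), with only the groups compared (0.157) and with voom (0.0899). In the corresponding tests of ISL1-/- minus WT and PAX6-/- minus WT, 0 of 9 genes were called, where 0.00386% and 0% of all genes were (2 and 0 of the 9 at an unadjusted p under 0.05), and DESeq2 also called 0 in both. In ISL1-/- (4.48, 4.8 and 3.78 CPM with ISL1) and PAX6-/- (2.31, 3.88 and 0.923 CPM with ISL1), SLC2A2 overlapped between vectors and did not pass the test.

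G6PC2 in PDX1-/- rested on a single library. With ISL1, replicate 2 had 1.22 CPM and replicate 4 had 49, beside 1.29, 2.25 and 1.51 with BFP. Replicate 2 lay below all 3 BFP libraries and replicate 4 far above them. The log2 fold change of 3.89 (SE 0.87, adjusted p = 0.0112) became -0.44 (SE 0.49) without replicate 4, whose sum of beta cell markers was 26146 CPM against 638 in replicate 2. Replicate 4 is also the library with the highest mitochondrial share.

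In ISL1-/-, G6PC2 had 0.992, 1.18 and 1.46 CPM with BFP and 7.69, 11.9 and 9.38 with ISL1. The groups did not overlap, and each ISL1 library was higher than every BFP library. The log2 fold change was 2.99 (SE 0.81, adjusted p = 0.164). With the description number as a block, it was 2.99 (SE 0.34, adjusted p = 0.000797) and passed the test. That block pairs the libraries of this genotype and also gives PDX1-/- with ISL1 replicate 4 a number of its own. The title number forms the same pairs here, and as a block it did not bring the call. Without that replicate 4 and with no block, the value was 2.96 (SE 0.35). The part of the pairing in the call was not tested. The level with ISL1 remained below that of WT with ISL1 (133 and 94.4 CPM), with a log2 difference of -3.56 (SE 0.84, adjusted p = 0.0282). In PAX6-/- with ISL1, G6PC2 had 0 counts in 2 libraries and 4 in replicate 3, the library that stands apart. In WT it had 87.6 and 104 CPM with BFP and 133 and 94.4 with ISL1, which overlapped. For ISL1-/- minus WT the difference of the vector effect was 2.74 (SE 1.19) with an adjusted p of 1. It passed the test with only the groups compared (2.74, adjusted p = 0.00453), with voom (2.86, adjusted p = 0.00296) and without both libraries that stand apart (2.71, adjusted p = 0.00852).

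PCK2 was lower with ISL1 in WT and PAX6-/- by its values. WT libraries had 110 and 116 CPM with BFP and 57.8 and 65.7 with ISL1, and PAX6-/- libraries 33.1, 39 and 40.9 with BFP and 23, 24.7 and 22.6 with ISL1. Neither pair of groups overlapped. The log2 fold changes were -0.87 (SE 0.31, adjusted p = 0.988) and -0.68 (SE 0.26, adjusted p = 0.352). The WT difference passed the test in other fits: -0.93 (adjusted p = 0.0405) with the description number as a block, and an adjusted p of 0.0193 with only the groups compared, 0.000928 with voom and 0.00234 without both libraries that stand apart. With the description number as a block, the PAX6-/- difference was -0.69 (SE 0.13, adjusted p = 0.0153) and passed the test. Here too the block pairs the libraries of the genotype and sets PDX1-/- with ISL1 replicate 4 apart. The title number forms the same pairs in PAX6-/-, and as a block it did not bring the call. Without that replicate 4 and with no block, the value was -0.7 (SE 0.13). The part of the pairing in the call was not tested. In ISL1-/- PCK2 had 32.5, 34.7 and 30.4 CPM with ISL1, a difference of -0.16 (SE 0.25, adjusted p = 1). In PDX1-/- it had 30.9 CPM in replicate 2 and 88.7 in replicate 4 with ISL1. The PCK2 difference from BFP there was 0.42 (SE 0.28, adjusted p = 0.324) with both libraries. It was -0.50 (SE 0.19) without replicate 4 and 0.99 (SE 0.18) without replicate 2, so its direction depended on the library left out. PCK1 in WT had 7.37 and 7.03 CPM with ISL1, below the 13.3 and 12.9 with BFP, and in PDX1-/- 3.42 and 8.09, above its BFP libraries; neither passed the test (adjusted p = 1 and 0.125). The PCK1 difference in PDX1-/- was 1.76 (SE 0.75) with both libraries and 1.04 (SE 0.90, adjusted p = 0.7) without replicate 4, and it was 2.26 (adjusted p = 0.0414) without replicate 2.

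The other genes did not pass the test for the vector in any genotype. SLC2A1 with ISL1 had 132 and 146 CPM in WT, 193, 170 and 206 in ISL1-/-, 274, 249 and 311 in PAX6-/-, and 151 and 113 in PDX1-/-, so that PAX6-/- was the highest genotype with this vector too. SLC2A3 with ISL1 had 41.3 and 53.5 CPM in WT and 10.3 to 18.2 CPM in the knockouts. HK1 and HK2 in the 2 libraries that stand apart were far below the others of their groups: HK2 had 5.39 CPM in PAX6-/- replicate 3, where the other 2 had 49.6 and 48.1, and 7.2 in PDX1-/- replicate 4, where the other had 26.6. HK1 had 47.4 CPM in the first and 21.9 in the second, beside 77.9 and 70.7, and 55.3. G6PC3 had 212 and 238 CPM there, beside 86.9 and 77.1, and 85.1. Without PAX6-/- replicate 3, the group had 82 CPM ± 6.97 (SD, n = 2) of G6PC3 in place of 125 ± 75.5 (SD, n = 3).

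The summed hepatocyte markers differed between vectors in the same directions as SLC2A2 in WT and PDX1-/-. Their sum lay in a range of 9866 to 12136 CPM in WT with ISL1, below WT with BFP, and of 7117 to 27620 in PDX1-/- with ISL1, above PDX1-/- with BFP. In that latter comparison 6 of the 7 hepatocyte markers were called higher, where 8.19% of all genes were. In WT 0 of the 7 were called, with a median log2 fold change of -0.67. The 2 PDX1-/- libraries with ISL1 were far apart. The lower value was 182 CPM for APOA2 and 436 for FGA, within the BFP ranges of 142 to 216 and 372 to 466. For ALB, AFP, APOA1, FGB and SERPINA1, both libraries lay above the BFP range. These directions were not particular to hepatocyte markers. The median log2 fold changes of the enterocyte, alpha cell and acinar marker lists were -0.43, -0.18 and -0.05 in WT. In PDX1-/- they were 1.75, 1.04 and 1.82. The other marker lists did not show both directions. The part of any of these lists in the SLC2A2 values was not tested.

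Each knockout was also compared with WT with the ISL1 vector in both. In ISL1-/- 2 of 9 genes were lower, G6PC2 and SLC2A3 (3.72% of all genes called, 2.69% lower), a count that was 4 with the description number as a block, 5 without both libraries that stand apart, 6 with voom and 7 with only the groups compared. In PAX6-/- 5 of 9 were called, with G6PC2, SLC2A3, PCK1 and PCK2 lower and SLC2A1 higher (3.56% of all genes called, 2.3% lower and 1.26% higher), and 1 was with only the groups compared. In PDX1-/- only SLC2A3 was, and it was lower (0.634% called, 0.286% lower). The count was 3 without both libraries that stand apart or with the description number as a block, and 0 with voom or with only the groups compared. The shares of all genes given here belong to the main fit, so the counts from the other fits have no share to be judged against. Whether these counts differ from those with BFP was tested only gene by gene, as the differences of the vector effect above.

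SLC2A3 was thus the gene called lower in all 3 knockouts with either vector, with log2 fold changes of -1.98 (SE 0.22, adjusted p = 9.71e-05), -1.57 (SE 0.22, adjusted p = 0.000664) and -1.52 (SE 0.25, adjusted p = 0.0141) in ISL1-/-, PAX6-/- and PDX1-/- with ISL1. The last call was lost without either WT library with ISL1 (adjusted p up to 0.146). Without both libraries that stand apart, the PAX6-/- and PDX1-/- values were -1.49 (adjusted p = 0.00011) and -1.66 (adjusted p = 0.000744). G6PC2 in PAX6-/- with ISL1 was 4664-fold lower than in WT with ISL1 (interval 1822 to 17119 from the 4 counts, 95% Poisson, counting error only; adjusted p = 0.000122). All 4 counts are in replicate 3, and without it the level was at least 2177-fold lower (0 counts in 2 libraries, 3 counts per library taken as the floor). In ISL1-/- the call of G6PC2 was lost without any 1 of the 5 libraries compared (adjusted p up to 0.152). SLC2A1 in PAX6-/- was higher by 1.00 (SE 0.21, adjusted p = 0.0124) and PCK2 lower by -1.40 (SE 0.28, adjusted p = 0.00879), and both calls were lost without either WT library with ISL1 (up to 0.181 and 0.104). PCK1 in PAX6-/- gave -2.84 (SE 0.77, adjusted p = 0.0499) and held in 5 of 21 fits without 1 library. Without both libraries that stand apart, SLC2A1, PCK2 and PCK1 gave 0.90 (adjusted p = 0.0011), -1.39 (adjusted p = 3.11e-06) and -2.49 (adjusted p = 0.0481) in PAX6-/-. In PDX1-/-, G6PC2 gave -2.18 (SE 0.93, adjusted p = 0.296) with both libraries and -6.52 (adjusted p = 0.000129) without replicate 4, and PCK2 gave -0.05 (SE 0.31, adjusted p = 0.949) and -0.97 (adjusted p = 0.0157).

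Between knockouts with BFP, 3 of 9 genes were called for ISL1-/- against PAX6-/- (2.46% of all genes, 0.757% higher and 1.7% lower), 0 for ISL1-/- against PDX1-/- (5.07%, with 3 of the 9 genes at an unadjusted p under 0.05) and 2 for PAX6-/- against PDX1-/- (3.04%, with 1.52% in each direction). These are the G6PC2, SLC2A1 and SLC2A3 values given above. For ISL1-/- against PDX1-/- DESeq2 also called 0, and voom 4, without a share of all genes from those fits. HK1 there gave 0.65 (SE 0.26, adjusted p = 0.177), and 0.69 (adjusted p = 0.000274) without both libraries that stand apart.

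Other genes of glucose metabolism were described through 8 lists that hold 86 genes, all tested. These lists too were chosen with earlier results of these data known. With BFP against WT, 0 were higher and 8 lower in ISL1-/- (9.3% called), 0 and 9 in PAX6-/- (10.5%), and 3 and 13 in PDX1-/- (18.6%), beside the 5.59%, 5.51% and 9.68% of all genes. Of 12 other glucose transporters, 1, 0 and 2 were lower, among them SLC2A5, the fructose carrier, in PDX1-/- (-2.87, SE 0.62, adjusted p = 0.00697). Of 5 other genes of glucose phosphorylation and glucose 6-phosphate, 2, 1 and 2 were lower, with HKDC1, a hexokinase domain protein, at -3.24 (SE 0.70, adjusted p = 0.0106) in ISL1-/- and -3.47 (SE 0.71, adjusted p = 0.0049) in PDX1-/-. Of 19 genes of glycolysis after glucose 6-phosphate, 1, 2 and 2 were lower and 0, 0 and 2 higher, the higher ones being ENO2 (1.58) and PFKM (1.10) in PDX1-/-, an enolase and a phosphofructokinase.

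Of 10 genes of gluconeogenesis and anaplerosis, 1 was lower in each knockout: the malic enzyme genes ME1 in ISL1-/- (-1.12) and ME2 in PAX6-/- (-1.49) and PDX1-/- (-1.65). Of 16 genes of pyruvate, lactate and redox shuttles, 2, 4 and 2 were lower and 0, 0 and 1 higher. PDK3, a kinase that restrains pyruvate dehydrogenase, was lower in all 3 knockouts, by -1.43, -2.12 and -1.17, and PDK4 in ISL1-/- (-2.49) and PAX6-/- (-1.68). LDHA, a lactate dehydrogenase subunit, was lower in PAX6-/- (-1.59) and PDX1-/- (-1.89). Of 11 hypoxia response genes (SLC2A1 itself is known to be induced by hypoxia in other cells), 0, 1 and 1 were lower and none higher, P4HA1 being the one in PAX6-/- (-1.14) and PDX1-/- (-1.23). Of 10 ATF4 targets 1, 0 and 3 were lower, including PSAT1 of serine synthesis in ISL1-/- (-1.08) and PDX1-/- (-0.99), and of 3 genes regulated by ChREBP none was called. The median log2 fold changes of the hypoxia response list were -0.38, -0.69 and -0.16. The part of hypoxia in the SLC2A1 values was not tested. With the ISL1 vector against BFP, 0 of the 86 genes were called in WT, ISL1-/- and PAX6-/-, and 9 were higher and 7 lower in PDX1-/- (18.6%, beside 12.5% of all genes).

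The order of group means was as follows. For G6PC2 both WT groups were highest, followed by PDX1-/- with ISL1 at 25.1 CPM, whose libraries overlapped with those of ISL1-/- with ISL1, then PDX1-/- and ISL1-/- with BFP, which overlapped, and PAX6-/-. For SLC2A2, WT with BFP (27.4 CPM ± 2.4, SD, n = 2) and PDX1-/- with ISL1 (14.1 ± 1.73, SD, n = 2) led and did not overlap, and WT with ISL1 (6.75 ± 0.315, SD, n = 2) came next, while the remaining groups lay between 2.37 and 5.58 CPM. For G6PC3 and HK2 all neighbours in the order of means overlapped, 7 of 7 pairs. Over all 21 libraries, SLC2A1 ranged from 113 to 336 CPM and G6PC3 from 77.1 to 238, while SLC2A2 ranged from 0.923 to 29.1 and PCK1 from 0.419 to 13.3.

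As a description over the 21 libraries, which share genotype, vector and the 2 libraries that stand apart, Pearson's r of log2 CPM was highest between PCK1 and PCK2 (0.8) and between SLC2A2 and PCK1 (0.78). G6PC2 and SLC2A1 ran opposite (r = -0.77), as did G6PC3 and HK2 (r = -0.84), the latter pair being the one that is extreme in both libraries that stand apart. Among the genes with a mean of at least 10 CPM, those most like G6PC2 were CHST9 (0.95), FFAR1 (0.94) and PDK3 (0.94). For SLC2A1 they were ZBTB16 (0.89), NEUROG3 (0.89) and MSL3 (0.88), and for SLC2A2 ADGRG7 (0.92), SLC39A5 (0.91) and ABCC6 (0.9). SLC2A3 was most like SH3RF1 (0.91), GSN (0.89) and NCOA7 (0.86), and HK1 most like PRXL2B (0.92), POLR3E (0.91) and KDM1A (0.91). HK2 ran with CTNND2, INAVA and C2CD2 (0.97 each), and G6PC3 with PMVK, TMUB1 and ARPC4 (0.98 each). PCK1 was most like NEDD9 (0.92), MUC13 (0.91) and BMP2 (0.91), and PCK2 like CORO2A (0.95), OAT (0.94) and GCNT3 (0.94).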

How the data were processed

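The authors deposited 1 count table (whole, not normalised read counts by gene, exon positions and length beside them) in the featureCounts layout per the file headers. STAR 2.7.11b, featureCounts 2.1.1 and GRCh38 are named in the submitters' processing notes. Strand setting, annotation release and treatment of reads that match several places are not given in the sources used here. Libraries were made with SMART-Seq v4, per the labels' protocols. Of 62700 genes, 62699 were used (1 entry is broken over 3 lines), and every identifier had a symbol in the name table supplied. No 2 libraries held identical values.

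Counts were tested with the quasi-likelihood test of edgeR 4.0.16 in R 4.3.3: TMM scaling, filterByExpr by group (minimum 10 counts, total 15), which left 25884 genes, all 21 libraries in a single model without a block, and Benjamini-Hochberg adjustment over all genes tested in each of 16 comparisons. The spread was thus estimated over groups of 2 and of 3 together (common biological coefficient of variation 0.334). Fold changes use a prior count of 0.125, and CPM per kb divides by the summed exon length of all transcripts of a gene. Means, SDs and standard errors rest on 2 or 3 libraries per group.

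The genes named are all 9 genes above and ISL1, PAX6 and PDX1. From each pathway list they are up to 3 genes per comparison with the largest change, an adjusted p under 0.05 and a higher group of at least 10 CPM, and, for each of the 9 genes, the 3 genes with the highest r. INS, NKX6-1, MAFA, ERO1B, NEUROG3, CFTR and the hepatocyte markers were named as markers after their values were seen. Members and lists were chosen with earlier results of these data known. Same-numbered libraries of the 2 vectors deviated together in ISL1-/- (r = 0.56, 0.44 and 0.76) and PAX6-/- (0.3, 0.51 and 0.62), using the number of the sample description. These numbers were therefore taken to pair the libraries. The main tests leave this pairing out, and the blocks were run only as alternatives. In WT (0) and PDX1-/- (-0.52) a single number is shared. By the title number, PDX1-/- gave 0.15 and 0.52. In a group of 2 libraries the deviations mirror each other, so the sign in PDX1-/- depends on which library is matched.

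Alternatives were DESeq2 1.42.0, DESeq2-style size factors in edgeR, no filter, either replicate block, only the groups compared, voom with quality weights (limma 3.58.1), leaving out the 2 libraries that stand apart, and leaving out each library.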

Additional observations from a re-analysis of the deposited data

Results flagged for a closer look

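A single result among the 9 genes was a tested difference between genotypes in the response to the vector. The vector effect on SLC2A2 in PDX1-/- minus that in WT was 4.41 on the log2 scale (SE 0.75, adjusted p = 0.00861, edgeR). SLC2A2 was higher with ISL1 than every BFP library in 2 of 2 PDX1-/- libraries, and lower than both BFP libraries in 2 of 2 WT libraries. The summed hepatocyte markers differed in the same directions, as did the medians of the enterocyte, alpha cell and acinar marker lists. The part of these lists in the result was not tested.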

How the results depend on the processing

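The calls of G6PC2, SLC2A3 and PCK2 in each knockout with BFP against WT kept their direction and side of the threshold in every alternative and every fit without 1 library. Counts of the 9 genes called moved as follows. The share of all genes called in each alternative was not computed, so a higher or lower count here may reflect all genes alike. The effect of the vector in WT (0 called) gave 1 with the replicate block by description number and 2 with only the groups compared, with voom and without both libraries that stand apart. In ISL1-/- (0) it gave 1 without a filter, with that replicate block, with only the groups compared, with voom and without both libraries, the gene being G6PC2. In PAX6-/- (0) it gave 1 with the replicate block, voom and without both libraries. In PDX1-/- (2) it gave 0 with the replicate block, only the groups compared and voom; PDX1-/- with ISL1 replicate 4 has no partner in that block. ISL1-/- against WT with ISL1 (2) gave 4 with the replicate block, which added PCK1 (-1.81, adjusted p = 0.0498) and PCK2 (-0.90, adjusted p = 0.00146), 7 with only the groups compared, 6 with voom and 5 without both libraries. PAX6-/- against WT with ISL1 (5) gave 1 with only the groups compared. PDX1-/- against WT with ISL1 (1) gave 3 with the replicate block, 0 with only the groups compared, 0 with voom and 3 without both libraries. ISL1-/- against PDX1-/- with BFP (0) gave 1 with the replicate block, 2 with only the groups compared, 4 with voom and 3 without both libraries. PAX6-/- against PDX1-/- (2) gave 4 with only the groups compared, voom and without both libraries. The difference of the vector effect in ISL1-/- minus WT (0) gave 1 with only the groups compared, voom and without both libraries, and in PDX1-/- minus WT (1) it gave 2 without a filter and 0 with only the groups compared and voom. Comparisons not listed kept their count within 1.5 times in the alternatives other than leaving out 1 library. The causes were not tested.

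Values reversed in these cases. G6PC2 with ISL1 against BFP in PDX1-/- was -0.54 with the replicate block, -0.44 without PDX1-/- with ISL1 replicate 4 and -0.45 without both libraries. PCK2 in the same comparison was -0.50 without both libraries, and PCK2 in PDX1-/- against WT with ISL1 was 0.52 without PDX1-/- with ISL1 replicate 2.

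Leaving out each library in turn gave 0 to 1 genes called for the vector in WT, ISL1-/- and PAX6-/- and 1 to 6 in PDX1-/-. Knockout against WT gave 3 to 5 (ISL1-/-), 3 to 6 (PAX6-/-) and 4 to 5 (PDX1-/-) with BFP, and 1 to 3, 2 to 5 and 0 to 5 with ISL1. Between knockouts it gave 1 to 3 (ISL1-/- against PAX6-/-), 0 to 1 (ISL1-/- against PDX1-/-) and 2 to 2 (PAX6-/- against PDX1-/-), and the differences of the vector effect gave 0 to 0, 0 to 0 and 0 to 4. The vector difference of G6PC2 in PDX1-/- ranged from -0.44 to 4.86, and PCK2 in PDX1-/- against WT with ISL1 from -0.97 to 0.52. The replicate block by title number ended 1 call, SLC2A3 between ISL1-/- and PAX6-/-. With 2 libraries in 3 groups, a single library often decides a call, and where a group is left with 1 it is assumed to vary like the others.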
